A study of Homo sapiens with 15 samples.

Results

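The 10 genes described here are CDKN2A, CDKN2B, MTAP, RB1, CDK4, CDK6, CCND1, CCND2, CCNE1 and CCNE2, which form the 9p21 tumour suppressor locus and the RB pathway of cell-cycle entry. They were chosen by name, and they are 10 of the 18132 genes that the array measured with a probe set of their own. Of 34 probe sets annotated to 1 of them alone, the brightest per gene over all lines was used, and the others served as a check. Expression was measured on 1 Affymetrix PrimeView array per line in 15 established non-small-cell lung cancer (NSCLC) lines, grown without irradiation. The radioresistant group held 8 lines, namely the adenocarcinoma lines A549, H1650, H1975, H2228, H3122 and HC827, the bronchioloalveolar line H358 and the large cell line H460. The radiosensitive group held 7 lines, namely the adenocarcinoma lines Calu3, H1781 and H2009, the bronchioloalveolar line H1437 and the squamous lines Calu1, H226 and H520. The sample labels name only the line, and its class comes from the table of surviving fractions in the study. The classes differ in histology, since all 3 squamous lines were radiosensitive. The lines are the replicates, so the spread between cultures of 1 line is unknown.

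Background on the pathway is as follows. In quiescent cells the RB protein, encoded by RB1, binds E2F transcription factors and keeps the genes of DNA synthesis off. Cyclin D1 and cyclin D2, encoded by CCND1 and CCND2, activate the kinases CDK4 and CDK6, which begin to phosphorylate RB. Cyclin E1 and cyclin E2, encoded by CCNE1 and CCNE2, are E2F targets themselves and complete the step with CDK2. CDKN2A encodes the CDK4 and CDK6 inhibitor p16INK4A and, from a more distant start and another reading frame, ARF, which restrains MDM2. CDKN2B encodes the related inhibitor p15INK4B, and the neighbouring MTAP encodes an enzyme of methionine salvage. Loss of 9p21 is frequent in lung cancer and often takes MTAP along with the inhibitors.

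Whether the probe sets of CDKN2A separate the transcripts of its proximal and distal starts was not examined. The promoters of both starts are therefore printed with that of CDKN2B. They are the 250 bases before each RefSeq start (GRCh38.p14, minus strand), with each CG dinucleotide, the methylation target of vertebrate promoters, in capitals. The distal start of CDKN2A follows chr9:21995325-21995574, the proximal one chr9:21974858-21975107 and the CDKN2B start chr9:22009306-22009555.
CDKN2A, distal start: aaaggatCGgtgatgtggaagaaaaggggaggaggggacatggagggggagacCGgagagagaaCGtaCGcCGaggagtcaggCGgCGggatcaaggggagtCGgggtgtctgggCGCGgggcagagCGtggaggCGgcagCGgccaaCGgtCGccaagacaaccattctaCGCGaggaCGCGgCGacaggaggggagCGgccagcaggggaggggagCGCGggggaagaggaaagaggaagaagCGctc
CDKN2A, proximal start: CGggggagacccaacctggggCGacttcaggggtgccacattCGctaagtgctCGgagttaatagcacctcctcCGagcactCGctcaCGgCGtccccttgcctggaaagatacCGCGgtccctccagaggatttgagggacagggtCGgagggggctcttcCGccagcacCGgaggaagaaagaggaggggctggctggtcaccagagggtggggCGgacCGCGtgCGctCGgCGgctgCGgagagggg
CDKN2B: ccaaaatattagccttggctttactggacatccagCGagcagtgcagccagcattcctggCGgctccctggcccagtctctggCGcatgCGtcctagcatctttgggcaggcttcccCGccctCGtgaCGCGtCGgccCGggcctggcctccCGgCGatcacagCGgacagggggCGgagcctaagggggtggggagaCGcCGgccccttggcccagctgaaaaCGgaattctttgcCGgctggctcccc
The stretches held 24, 20 and 18 CG dinucleotides, which read the same on both strands. Among 35116 RefSeq promoters of that length, 93.9% held at least 1 CG, and 23.7%, 32.4% and 36.8% held at least as many as these. The MTAP promoter, at chr9:21802386-21802635 on the plus strand, held 11, as did the median promoter. Methylation was not measured.

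CDKN2A divided the lines. Its log2 expression reached 4.15, 5.09 and 12.48 as the lowest, median and highest value in radioresistant lines, and 4.07, 11.62 and 12.33 in radiosensitive lines. The widest gap in the ordered values ran between 5.22 in H2228 and 8.98 in H1975, a step of 3.75. Below it lay 7 lines, the radioresistant A549 (4.96), H1650 (4.15), H2228 (5.22), H3122 (4.28) and H460 (4.21) and the radiosensitive H1437 (4.61) and H226 (4.07). Above it lay the radioresistant H1975, H358 (10.98) and HC827 (12.48) and the radiosensitive Calu1 (12.24), Calu3 (12.28), H1781 (11.62), H2009 (12.33) and H520 (11.05). Thus CDKN2A was low in 5 of 8 radioresistant and 2 of 7 radiosensitive lines, and the groups overlapped over nearly the whole range. A gap of more than 1 on the log2 scale occurred in 18.9% of all genes and in 6 of these 10, one over 0.75 in 27.4% and 7, and one over 1.5 in 10.1% and 4. The range of CDKN2A, 8.41, ranked 105 among the 18132 genes. The arrays' lower quartiles, 4.16 to 4.34, serve here as the level of background. In 5 of the 10 genes some but not all lines lay under it, as in 19.4% of all genes. For CDKN2A these were H1650, H460 and H226. With no genome data, a lost gene and a silent one cannot be told apart, nor can fewer expressing cells and less RNA per cell.

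H1975 took a middle place. In both other CDKN2A probe sets it lay next to the low lines, at 7.12 and 5.91, and the widest gap ran above it to H1781, at 8.37 and 7.27. The other 7 expressing lines were above the gap in all 3 probe sets.

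CDKN2B was low in nearly the same lines. Its lowest, median and highest log2 values were 3.04, 3.50 and 8.36 in radioresistant lines and 3.38, 6.84 and 9.27 in radiosensitive lines. A gap of 2.05 separated 6 lines from the rest, the radioresistant A549 (3.04), H1650 (3.21), H2228 (3.32), H3122 (3.57) and H460 (3.43) and the radiosensitive H1437 (3.38). All 6 lay under the lower quartile of their own arrays, and all were also low in CDKN2A. The second CDKN2B probe set put the same 6 lines low, with a gap of 1.49. The third was dim, from 3.87 to 5.86, and had no gap over 1. H226 was the exception, with CDKN2B at 6.84 and CDKN2A at 4.07, the lowest value of any line. Among the lines with both inhibitors, Calu1 had the highest CDKN2B (9.27), followed by H1781 (8.42) and H358 (8.36), and H1975 the lowest (5.62).

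MTAP gave different answers by probe set. In its brightest set, the lowest, median and highest log2 values were 3.70, 7.40 and 9.33 in radioresistant lines and 4.32, 7.28 and 9.03 in radiosensitive lines. Only H2228 (3.70), H3122 (4.29) and H1437 (4.32) stood apart, by a gap of 1.98. A549 and H1650 reached 8.20 and 8.49 there. In 4 of the 5 other sets, A549 and H1650 were low as well, with gaps of up to 3.18. In the third-brightest set, for instance, A549 had 3.73, H1650 3.82, H2228 4.06, H3122 3.88 and H1437 3.94. The other 10 lines had 7.13 (H226) to 10.02 (HC827) in it. The fifth set was nearly flat, with a range of 0.81, as was a set shared by MTAP and CDKN2B-AS1, from 5.28 to 6.02. H460, low in both inhibitors, kept MTAP at 7.21 in the brightest and 7.58 in the third set.

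**Figure D1:**
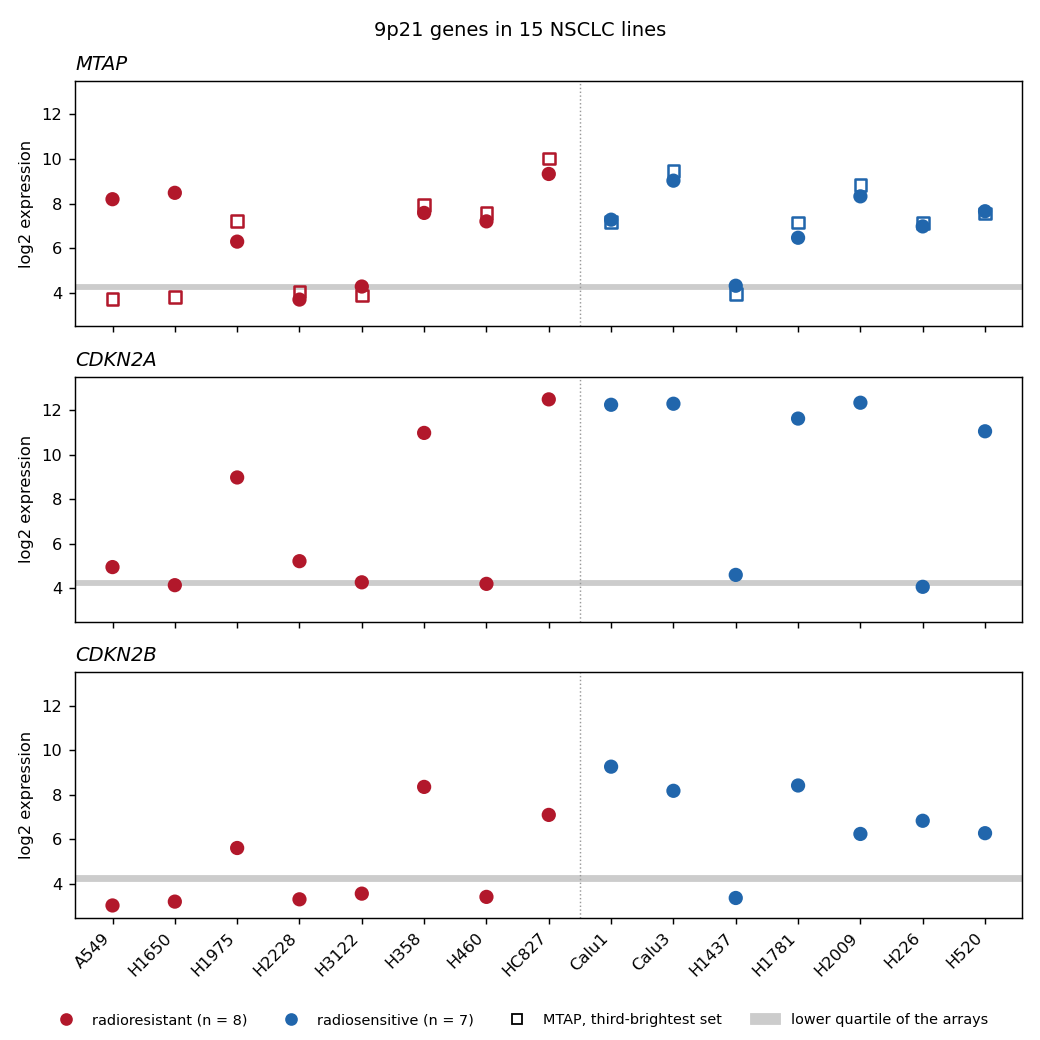
Log2 expression of MTAP, CDKN2A and CDKN2B (vertical axes) in the 8 radioresistant (red, left) and 7 radiosensitive lines (blue, right), with 1 array per line. Filled circles are the brightest probe set of each gene, open squares the third-brightest set of MTAP, and the grey band spans the lower quartiles of the arrays. A549 and H1650 have MTAP circles at 8.20 and 8.49 but squares at 3.73 and 3.82.

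By the 4 agreeing MTAP sets, the low states were nested. All 3 genes were low in 5 lines, the radioresistant A549, H1650, H2228 and H3122 and the radiosensitive H1437. Both inhibitors were low with MTAP kept in H460, and CDKN2A alone was low in H226. No line had low MTAP or low CDKN2B with high CDKN2A. In the other 8 lines all 3 genes were expressed.

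The neighbours of the locus showed how far low expression extended. KLHL9, on the interferon side of MTAP, encodes a substrate adaptor of a CUL3 ubiquitin ligase. It was at 3.21 in H2228 and 3.26 in H1437, against 6.05 in H1975 and 7.91 to 9.80 in the other 12 lines. A549, H1650 and H3122, which were low in all 3 genes, kept KLHL9 at 9.09, 9.28 and 7.91. On the other side, DMRTA1 was lowest in H2228 (3.19, against 3.79 to 8.14 elsewhere). This gene was dim, with a median of 4.90 in the other 14 lines. In H460, at 3.79, it also lay under the array's lower quartile (4.29), so its lowest rank says little about the region. TUSC1, farther out, was lowest in H1437 (5.89, against 7.62 to 9.71). The interferon genes IFNA2, IFNA5, IFNA6 and IFNA8 lay at background in all lines and could not report on the region. CDKN2B-AS1, the antisense transcript of the locus, was dim everywhere and highest in Calu3 (5.88, against 3.17 to 4.67 in the other 14 lines).

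RB1 was near background in 3 lines by its 2 brighter probe sets. Its lowest, median and highest log2 values were 3.48, 6.01 and 7.20 in radioresistant lines and 3.38, 6.16 and 7.61 in radiosensitive lines. The radioresistant H2228 (3.48) and the radiosensitive H1781 (3.67) and H2009 (3.38) lay under a gap of 1.21, and all 3 under the lower quartile of their arrays. The second probe set had the same 3 lowest lines (3.54, 3.82 and 3.15), without a gap over 1, since H1975 followed at 4.23. In the third and dimmest set, H1975 was lowest (3.60), followed by H2228 (3.76). That set did not single out H1781 (4.20) and H2009 (4.25), which lay above Calu1 (3.97), H1650 (4.11) and HC827 (4.11). H1781 also had the highest ratio of 3′ to 5′ actin signal, a sign of RNA degradation, with a log2 difference of 2.09, against 1.90 in H3122 and 0.63 to 1.30 in the other 13 lines. The part of this ratio in the RB1 value was not tested. Of the 12 neighbours measured around RB1, none was lowest in H1781. The dim genes HTR2A (3.31) and RCBTB2 (4.03) were lowest in H2009, and LRCH1 (3.70) and ESD (8.84) in H2228.

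Low RB1 occurred with both states of CDKN2A. H1781 and H2009 had CDKN2A at 11.62 and 12.33, among the 5 highest values. H2228 was low in CDKN2A, CDKN2B, MTAP and RB1 alike. The 6 other lines with low CDKN2A had RB1 between 5.79 (H1650) and 7.20 (H3122). The 6 remaining lines, H1975, H358, HC827, Calu1, Calu3 and H520, had high CDKN2A with RB1 above the gap, from 4.87 in H1975 to 7.61 in Calu3. Over all lines the 2 genes had a Pearson r of -0.28 (Spearman rho -0.37, n = 15, as a description). Since CDKN2A falls into separate sets of lines, the values within them are given too, -0.65 in the 7 low and -0.03 in the 8 high lines. Cyclin D1 was 8.62 in H1781 and 8.59 in H2009, the third and second lowest of the 15 lines, but 10.72 in H2228.

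**Figure D2:**
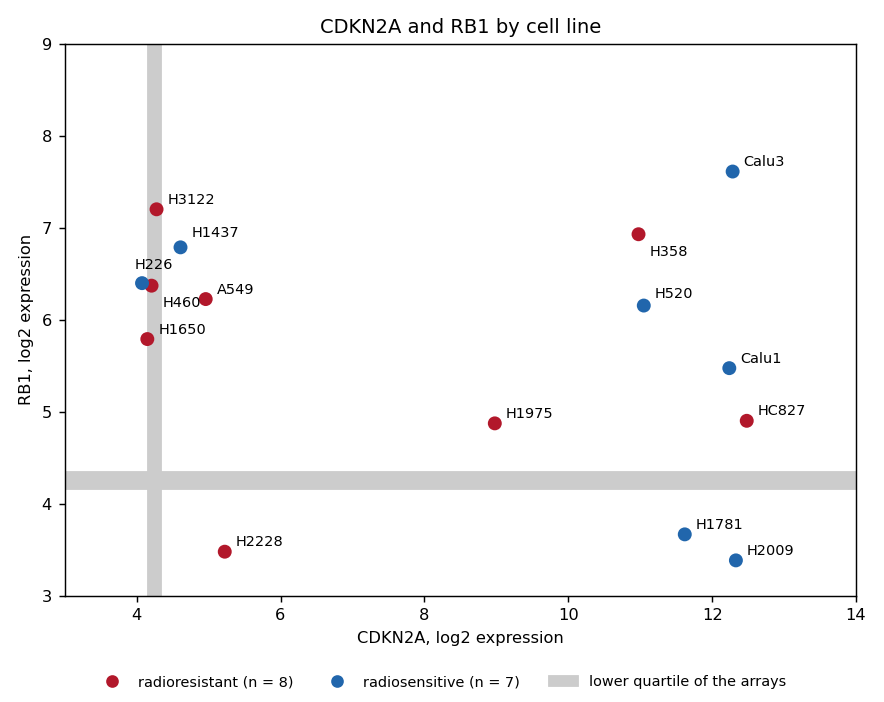
RB1 (vertical axis) against CDKN2A (horizontal axis), both as log2 expression of the brightest probe set, with 1 labelled point per line, red for radioresistant and blue for radiosensitive. Grey bands span the lower quartiles of the arrays. H1781 and H2009 lie at the lower right (RB1 3.67 and 3.38), and H2228 is low in both genes.

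CDK4 stood out in 1 line. HC827 reached 13.99, and the other 14 lines lay between 10.17 (H520) and 11.63 (H1975). The gap of 2.36 recurred in the 3 other CDK4 probe sets, at 2.28 to 2.48. In radioresistant lines the lowest, median and highest values were 10.31, 11.02 and 13.99, and in radiosensitive lines 10.17, 10.92 and 11.37, so the groups overlapped. The neighbours TSPAN31, which encodes a tetraspanin, and OS9, which encodes a lectin of protein quality control in the endoplasmic reticulum, were also highest in HC827. TSPAN31 was at 10.50 there, against 6.79 to 8.48 in the other lines, and OS9 at 12.52, against 8.78 to 10.21. Not every measured neighbour was raised in HC827. AGAP2, which lies between OS9 and TSPAN31, was at 6.23, with a median of 6.24 over the lines. MARCHF9 was at 7.09, against 8.84 in Calu3, its highest line. PIP4K2C, a phosphoinositide kinase gene, had the pattern most like CDK4, with 13.38 in HC827 and 7.99 to 10.01 in the others. Its r of 0.90 rested on that line and became 0.24 without HC827 and H520. The position of PIP4K2C relative to CDK4 was not examined.

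CDK6 varied more evenly, from 7.41 in H3122 to 11.36 in H226. Its lowest, median and highest values were 7.41, 9.58 and 10.63 in radioresistant lines and 7.72, 9.57 and 11.36 in radiosensitive lines. HC827, with the highest CDK4, had the second highest CDK6 (10.63) in the brightest set, a place that Calu3 took in 2 of the others. The lowest and highest lines were the same in all 4 probe sets.

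CCND1 was expressed in every line, from 8.57 in H460 to 12.16 in H3122. Its lowest, median and highest values were 8.57, 10.71 and 12.16 in radioresistant lines and 8.59, 9.74 and 11.18 in radiosensitive lines. H3122 led HC827 (11.45) by 0.71 in the brightest set and by 1.02 to 1.18 in the 3 others. Of its 12 measured neighbours, 4 were also highest in H3122. There, LTO1 was at 9.85, TPCN2 at 8.79, FADD, the adaptor of death receptors, at 11.43, and the chloride channel gene ANO1 at 9.42. In the other lines LTO1 reached at most 8.98, TPCN2 7.48, FADD 10.55 and ANO1 9.06. H520 differed, with FGF3 at 10.88 and FGF19 at 10.55, growth factor genes between LTO1 and ANO1. In the other 14 lines these 2 genes reached at most 4.89 and 5.67. CCND1 itself was at 9.22 in H520, rank 12 of 15.

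CCND2 lay at background in most lines. Its brightest probe set stayed between 3.57 and 4.44, under the lower quartile in 13 lines. Both other sets singled out the squamous lines Calu1 and H226. Their values were 8.25 and 9.04 in the third-brightest set, in which the other 13 lines lay between 3.02 and 3.46, and 5.42 and 5.62 in the second. The squamous line H520 had 3.17 in the third set. By these values CCND2 was at background in all 8 radioresistant and in 5 of 7 radiosensitive lines. PARP11, the next gene before CCND2, was also highest in Calu1 (7.42) and H226 (6.39), against at most 5.55 elsewhere.

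CCNE1 was highest in A549 (10.08) and H2009 (9.85) and lowest in Calu1 (5.51) and H460 (6.38) by its brightest probe set. The second, dimmer set reversed the order at the top, with H2009 at 6.54 and A549 at 6.18. Calu1 (4.71) and H460 (5.15) were again lowest in it. In the brightest set, the lowest, median and highest values were 6.38, 8.81 and 10.08 in radioresistant lines and 5.51, 8.17 and 9.85 in radiosensitive lines. Of the 12 measured neighbours of CCNE1, 4 were highest in A549. POP4, a ribonuclease P subunit gene, was at 9.97 (at most 9.56 elsewhere), C19orf12 at 8.84 (8.39), URI1 at 10.36 (10.17) and PDCD5 at 12.69 (11.84). POP4 also followed CCNE1 over the lines, with r 0.87 and rho 0.89, and 0.87 without Calu1 and H460. Only TOMM40, of the mitochondrial import pore, had a higher r (0.89).

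CCNE2 was highest in HC827 (10.14), above a gap of 1.13 to H3122 (9.01), and lowest in Calu1 (4.70) and H460 (5.77). Its lowest, median and highest values were 5.77, 8.50 and 10.14 in radioresistant lines and 4.70, 7.97 and 8.85 in radiosensitive lines. The second probe set ordered H460, H520 and Calu1 as the lowest lines and gave HC827 a lead of 0.89. By the brightest probe sets, Calu1 and H460 were thus the lowest lines for both E cyclins.

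**Figure D3:**
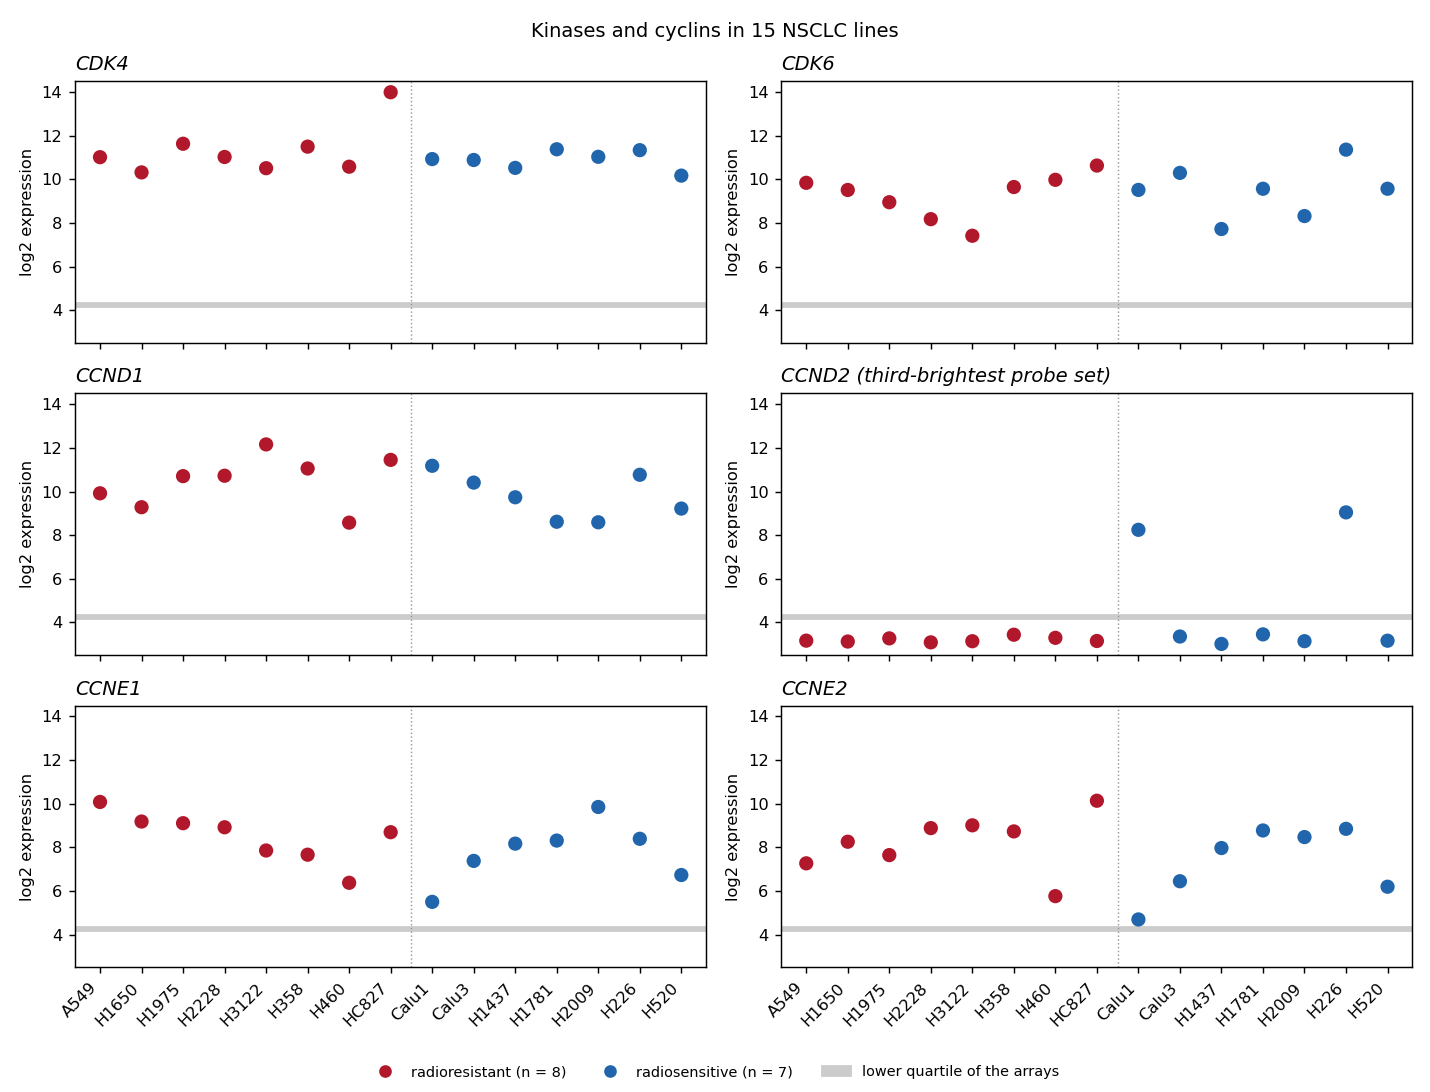
Log2 expression of the kinase and cyclin genes (vertical axes) in the 8 radioresistant (red, left) and 7 radiosensitive lines (blue, right), 1 array per line, with the lower quartiles of the arrays in grey. CCND2 is shown by the third-brightest probe set, in which Calu1 (8.25) and H226 (9.04) stand apart, and HC827 lies highest for CDK4 at 13.99.

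**Figure D4:**
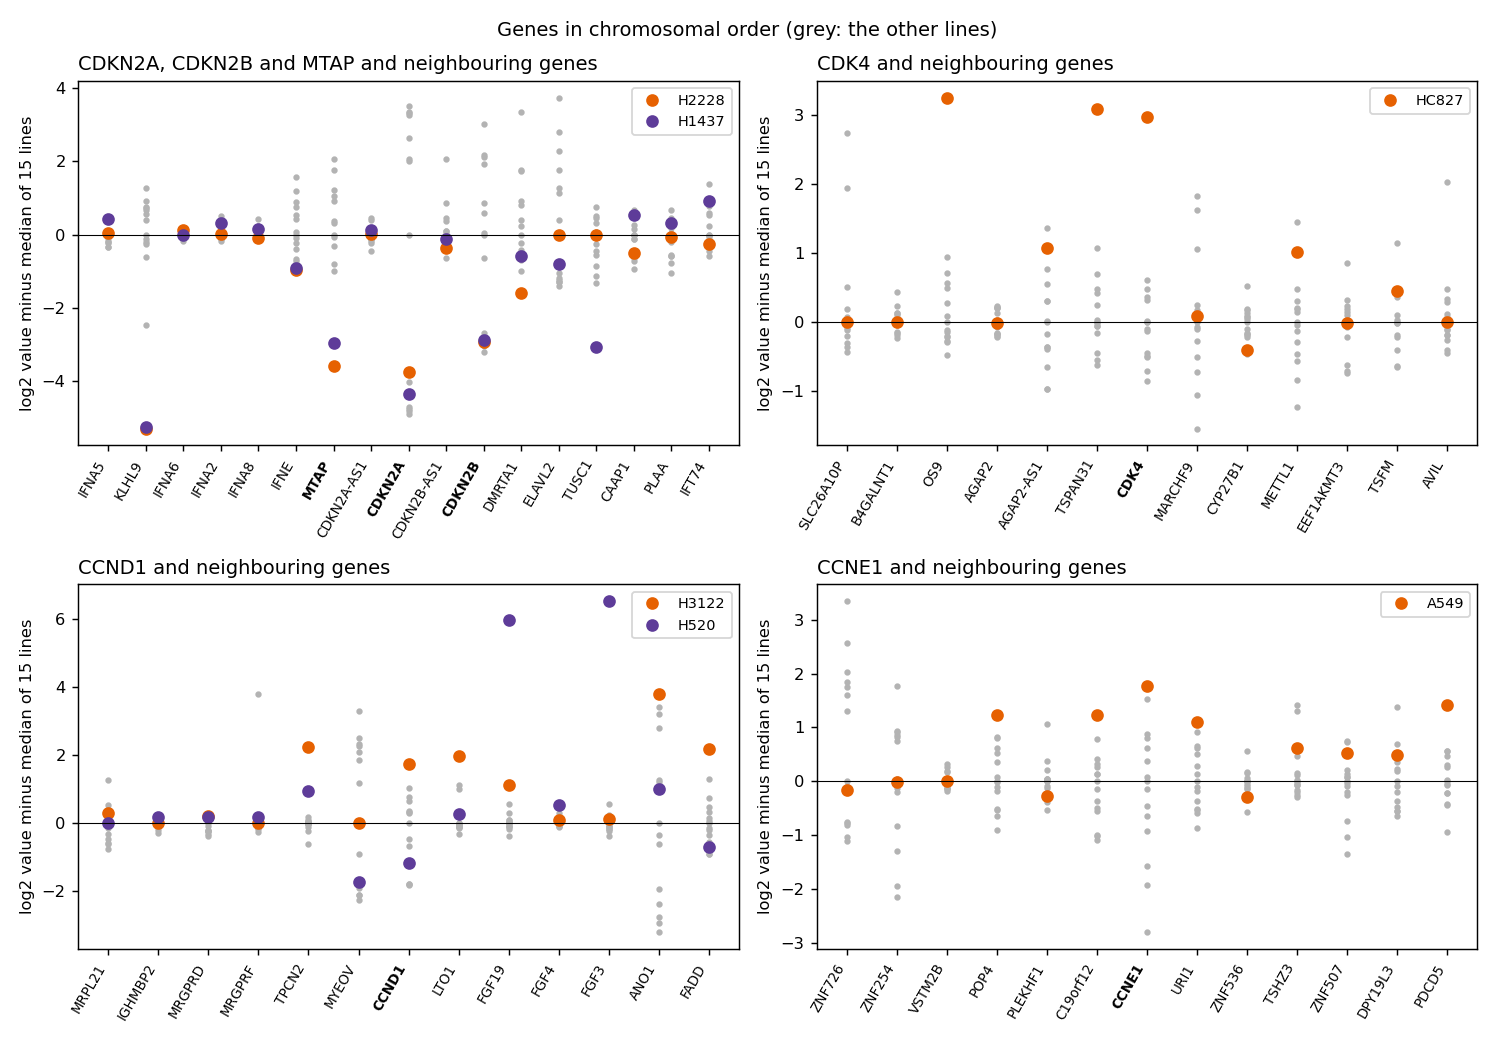
Log2 expression minus the median of the 15 lines (vertical axes) for member genes (bold) and the genes measured on either side, in the order of the reference assembly. Coloured points are the named lines and grey points the others. H2228 and H1437 drop at KLHL9, MTAP, CDKN2A and CDKN2B, and HC827 rises at OS9, TSPAN31 and CDK4 but not at MARCHF9.

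How the genes went together was described by Pearson's r over the 15 lines, with no test. CDKN2A and CDKN2B had r 0.83 (rho 0.61), and each ranked first or second among 18131 genes for the other. Most of this came from the separate sets of lines, since r was 0.50 within the 8 lines with high CDKN2A and -0.47 within the 7 with low CDKN2A, where H226 stood apart. MTAP had r 0.50 with CDKN2A by its brightest set and 0.78 by the third set. By the third set, CDKN2A and CDKN2B were the first and second most similar of 8671 varied and expressed genes. CDK6 and MTAP had r 0.70 (0.54 by the third set of MTAP). CCNE1 and CCNE2 had r 0.66, which became 0.29 without Calu1 and H460. Of the 45 pairs, 3 had an absolute r over 0.6.

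Beyond the members, FAM3C had the highest r with CDKN2A, 0.85 (rho 0.82), and it held within the 8 high lines (0.86, and 0.57 within the 7 low lines). CMTM7 came next after CDKN2B, with r 0.80, which was 0.74 within the low and 0.09 within the high lines. The most opposite gene was CDKN1A, named after its values were seen, which encodes the general CDK inhibitor p21. Its r with CDKN2A was -0.79 (rho -0.85), -0.71 within the 7 low and -0.32 within the 8 high lines. CDKN1A was highest in H226 (11.72) and H3122 (11.42), both low in CDKN2A, and lowest in H520 (6.74). MDM2 RNA was likewise highest in H226 (10.33) and H3122 (9.33). MDM2 was named outside the naming rule given below, and a link of either gene to CDKN2A was not tested. RB1 was most like SLC39A10 (r 0.70), CDK6 most like ASMTL (0.75), CCND1 most like BIN3 (0.76) and CCNE2 most like USP38 (0.89).

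The comparison of radioresistant with radiosensitive lines asked whether any of these genes differed in mean. CDKN2B averaged 4.71 ± 2.06 in radioresistant and 6.95 ± 1.95 in radiosensitive lines (SD, n = 8 and 7), a difference of -2.24 (SE 0.98). A gene was called here at a log2 difference beyond 1 with a p below 0.05 before adjustment. The study's text gives the p of its cutoff once as a plain p and once as adjusted. CDKN2B passed in limma (p = 0.0385) and missed in a two-sided exact permutation test over 6435 splits of the lines (p = 0.0538). Its adjusted p over all genes was 0.998 (limma). At that threshold 99 genes (0.546%) were called, 60 higher (0.331%) and 39 lower (0.215%) in radioresistant lines, and CDKN2B was the only member among them. No gene (0.0%) had an adjusted p under 0.05 in limma. An unadjusted p under 0.05 was found for 577 genes (3.18%), 260 higher (1.43%) and 317 lower (1.75%) in radioresistant lines, again with CDKN2B as the only member. Of the 15 fits that left out 1 line, with differences of -2.83 to -1.85, the call held in 6, those without HC827, H358, H1975, H520, H2009 or H1437. It was lost with the mean of its probe sets (-1.44), without the squamous lines (-1.85) and without H1781 and H3122, the lines of highest actin ratio (-1.83). With the adenocarcinoma lines alone the call was kept in the brightest set, at -3.31.

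CDKN2A had the largest mean difference of the 10 genes, -2.84 (SE 1.73), with 6.91 ± 3.39 in radioresistant and 9.74 ± 3.72 in radiosensitive lines (SD, n = 8 and 7). It missed the threshold (limma p = 0.123, exact permutation p = 0.153), and it passed without H1437 (-3.69), H226 (-3.78) or HC827 (-3.63) and with the adenocarcinoma lines alone (-5.40, limma p = 0.0171). The lines within each group thus spread over more than the difference between the means. For MTAP the difference was -0.27 (SE 0.88) by the brightest and -1.29 (SE 1.06) by the third set. RB1 differed by 0.08 (SE 0.69) and CDK6 by -0.21 (SE 0.55). The difference was 0.43 (SE 0.45) for CDK4 and 0.05 without HC827. It was 0.70 (SE 0.54) for CCND1, 0.72 (SE 0.62) for CCNE1 and 0.87 (SE 0.71) for CCNE2. The cyclin differences moved with the lines included. Without the squamous lines they were 1.15 for CCND1, 0.06 for CCNE1 and 0.30 for CCNE2. Leaving out Calu1 gave 0.35 for CCNE1 and 0.43 for CCNE2, and leaving out H3122 gave 0.46 for CCND1. CCND1 differed by 1.501 with the adenocarcinoma lines alone and by 0.26 without H1781 and H3122. CCND2 differed by -0.25 (SE 0.13) in its brightest set (-0.04 without the squamous lines) and by -1.56 (SE 0.89) in the third, where Calu1 and H226 alone were expressed. None of these passed the threshold, and all adjusted p-values over all genes were 0.998 or 0.999 (limma).

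**Figure D5:**
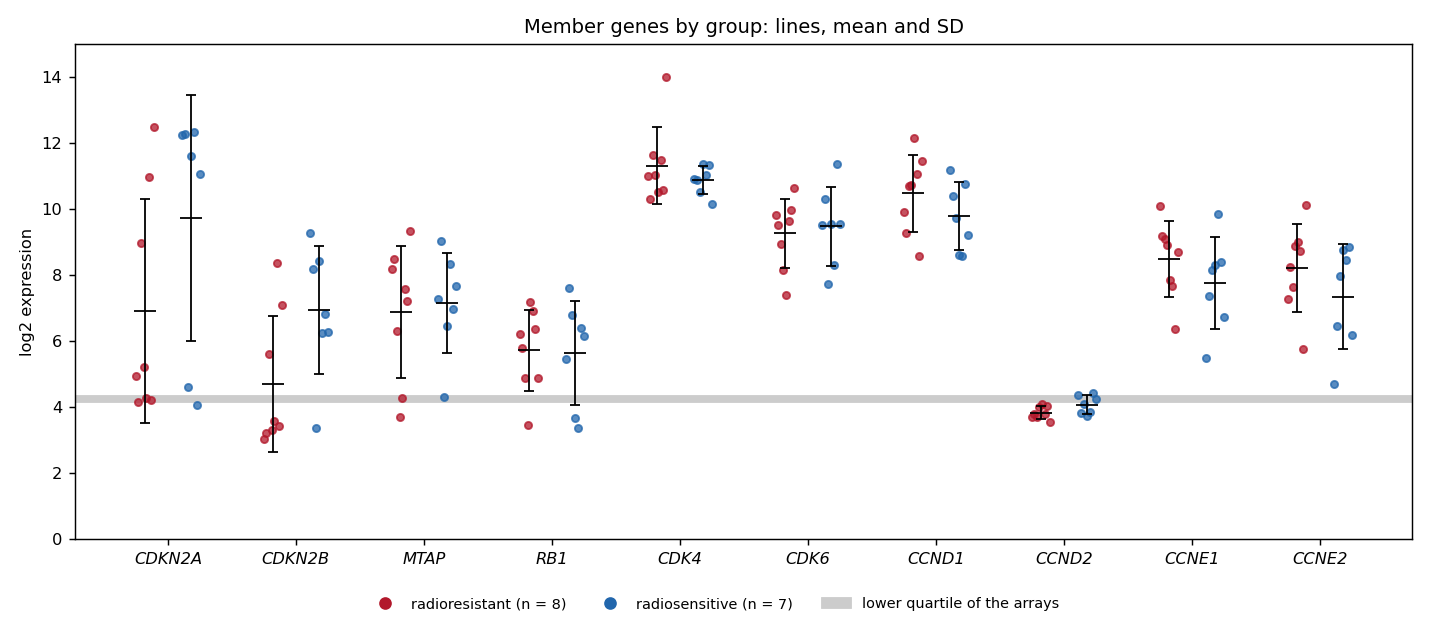
Log2 expression of the 10 member genes (vertical axis) in radioresistant (red, left of each pair, n = 8) and radiosensitive lines (blue, right, n = 7), with 1 point per line. Horizontal bars are means, error bars SD, and the grey band spans the lower quartiles of the arrays. CDKN2B averages 4.71 in radioresistant and 6.95 in radiosensitive lines, and the points of the groups overlap for every gene.

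Of the other pathway genes, 66 of 72 on 7 lists were measured, and none passed the threshold. Among 18 measured E2F targets of DNA synthesis, 17 had a higher mean in radioresistant lines, with a median difference of 0.38. Over all genes 48.3% had a higher mean, with a median difference of -0.0079. The mean of these targets was lowest in the squamous, radiosensitive line Calu1 (8.18). It was also low in the squamous H520 (8.55) and the radioresistant H460 (8.49), but 9.15 in the squamous H226. The part of histology in this shift was not tested. The sliding clamp PCNA differed by 0.82 (SE 0.34) and RRM2, a ribonucleotide reductase subunit, by 0.99 (SE 0.41), both with an unadjusted p under 0.05 but a difference under 1. They were 2 of 18 targets, beside 1.43% of all genes higher at that p. Of the 12 RB family, E2F and DP genes, 10 had a higher mean, with a median difference of 0.20. The 4 other measured inhibitors of the INK4 and CIP/KIP families spanned -0.48 for CDKN1C to 0.94 for CDKN1A. Higher means were found for 6 of 9 other cyclins and kinases (median difference 0.17), 5 of 7 genes around ARF and MDM2 (0.15), 8 of 11 genes of methionine salvage (0.09) and 1 of 5 polycomb genes (-0.25). PRMT5, the methyltransferase studied in cells without MTAP, differed by 0.05 (SE 0.34). The 98 chromosomal neighbours of the members held no call.

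The mean of the E2F targets had r 0.76 with CCNE1 (rho 0.55), 0.60 with CCNE2 (rho 0.35) and -0.04 with RB1 (rho 0.07). In the 3 lines with low RB1 it was 9.54 (H2228), 9.06 (H1781) and 9.62 (H2009), within the range of the others, 8.18 in Calu1 to 9.98 in H1975. The lines with the lowest means, Calu1, H460 (8.49) and H520 (8.55), were also the 3 lowest for CCNE1.

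The arrays were alike in level, with medians of 5.88 to 5.93. Of 5 blood cell markers, PTPRC was at background in all lines, from 2.96 to 3.45, while CD3E, CD79A and HBB lay above the lower quartile in all 15. CD14 reached 9.64 in H1437, a line low in all 3 genes of 9p21, and at most 6.12 elsewhere. The mean of the 5 was 5.01 to 5.55 in radioresistant and 4.92 to 6.18 in radiosensitive lines. The mean of 6 stromal markers was 4.63 to 5.80 in radioresistant and 4.53 to 4.87 in radiosensitive lines. Of these, DCN was at background in all lines, while PDGFRB, PECAM1 and VWF lay above the lower quartile in all 15. COL3A1 lay above it only in H1650 (5.71) and H460 (6.49). LUM reached 8.63 in H2228 and at most 6.36 elsewhere. The part of these markers in the results was not tested. Of 5 epithelial markers, the mean was 9.10 to 13.24. EPCAM was under the lower quartile in H460 (4.21) and H226 (4.03), and so was CDH1 (3.38 and 3.49). KRT8, KRT18 and KRT19 lay far above it in all 15 lines. H226 was the highest line for KRT8 (13.95) and KRT18 (14.73), and H460 had 11.82 and 12.60.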

How the data were processed

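Each of the 15 NSCLC lines was measured on 1 PrimeView array. The authors deposited RMA values on the log2 scale, 1 per probe set (affy 1.64.0, per the submitters' processing notes). RMA equalises the arrays and compresses low signals. The labels describe Trizol, DMEM and biotin-labelled RNA, the methods other kits, media and dyes with a reference RNA; no ratio was formed here. The number of arrays limits the precision.

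Of 49495 probe sets, 100 ERCC and 102 AFFX controls were left out, and 44988 of the rest had 1 gene in the platform annotation; 1832 had several and 2473 none. The brightest probe set of each of 18132 genes was tested with limma 3.58.1 (R 4.3.3), Benjamini-Hochberg over all genes, with exact permutation p-values for the members. The class of a line comes from the study's table. A line stood apart beyond a widest gap over 1. Neighbours were the 6 measured genes on either side of a member in GRCh38.p14. Named genes were the 10 members, the 3 genes of highest r per member (highest line over log2 8, range over 1) and up to 4 lowest p-values per list. Neighbours were named where a line stood apart in a probe set of the member. MDM2, PRMT5, the cell type markers and the neighbours of CCNE1 other than POP4 were named outside this rule. Members and lists were chosen with earlier results of these data known. The test was checked on simulated data. Other tools were matplotlib 3.10.9, scipy 1.17.1, Python 3.11.15, pandas 2.3.3 and numpy 2.4.6. Alternatives covered probe sets, moderation, weights, centring, dim genes, histology, degraded arrays, single lines and the methods' t-test.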

Additional observations from a re-analysis of the deposited data

Results flagged for a closer look

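Of 24 sets of lines examined for a single distant value, 2 held one. Chance gives about 1 in 20 for normally distributed values, a rate that does not apply to genes that fall into separate sets of lines. The 24 included the third-brightest sets of MTAP and CCND2, chosen after the data had been seen. CDK4 in HC827, at 13.99, lay far above the next radioresistant line, H1975 at 11.63. MTAP in H1437, at 3.94 in the third-brightest probe set, lay far below the next radiosensitive line, H226 at 7.13. In that set 4 radioresistant lines were low too, from 3.73 (A549) to 4.06 (H2228), so H1437 was distant only within its group.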

How the results depend on the processing

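The members' comparison depended on the lines. Against 1 member called, none was called with the mean of each gene's probe sets, without the squamous lines, without the 2 lines of highest actin 3′ to 5′ ratio (H1781 and H3122), with the methods' t-test, or in its permutation form (0 each). With the adenocarcinoma lines alone 2 were called. Leaving out single lines gave 0 to 2, with 0 without A549, Calu1, Calu3, H1650, H1781, H2228, H3122 or H460 and 2 without H1437 or HC827. The count over all genes, 99, became 167 without the squamous lines and 224 with the adenocarcinoma lines alone. It ranged from 78 to 175 without single lines, with 175 without H1437 and 159 without H2009. The methods' t-test gave 80, and its permutation form was not run over all genes.

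Small differences changed sign. CDK6 was at 0.29 without the squamous lines and 0.071 without H1781 and H3122, and from -0.50 to 0.10 without single lines. RB1 was at -0.015 with the mean of its probe sets, -0.46 without H1781 and H3122, -0.20 by the third set, and from -0.29 to 0.41 without single lines. MTAP ran from -0.74 to 0.19 without single lines. Of the member differences under all alternatives, 238 kept direction and side of the threshold, 16 lost the call, 4 gained it and 15 changed sign; all 16 losses were of CDKN2B and all 4 gains of CDKN2A. Pairs with an absolute r over 0.6 numbered 3, against 1 by Spearman's rho, 5 with the mean of the probe sets and 6 without the squamous lines. By the third sets of MTAP and CCND2, chosen after the data had been seen, there were 4. Members with a line apart numbered 6 to 7 at gap limits of 1 and 0.75, and 4 at 1.5. The causes were not tested. No paired analysis was possible because each line is a different cell line, and the replicate numbers only name the lines within a group.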
